A study of Mus musculus with 28 samples.

Results

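The matrix metalloproteinases (MMPs), the ADAMTS proteases and the tissue inhibitors that restrain them (TIMPs) were followed in mouse hearts after neonatal myocardial infarction. Members were all genes annotated as protein coding whose symbol begins with Mmp, Timp or Adamts and a digit, which gave 46 of 45318 genes. They comprised 23 Mmp, 4 Timp and 19 Adamts genes. In the files of both follow-ups 45 were annotated as protein coding, and Mmp1a was so only at 21 days. No expression value was used to choose them.

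All hearts came from male Hsd:ICR(CD-1) mice. They had ligation of the left anterior descending coronary artery (MI) or a sham operation, on postnatal day 7 or on postnatal day 1, in the on-ice neonatal model. The paper places the myocardium used for RNA at 21 days distal to the ischemic injury. Its main text gives no site for the 3-day RNA. At the 3-day follow-up 4 libraries stood in each of 7d-MI + 3 and 7d-SHAM + 3 (aged 10 days), and in each of 1d-MI + 3 and 1d-SHAM + 3 (aged 4 days). At the 21-day follow-up 3 libraries stood in each of 7d-MI + 21 and 7d-SHAM + 21 (aged 28 days), and in each of 1d-MI + 21 and 1d-SHAM + 21 (aged 22 days). Mice operated at 7 days were also older when sampled than those operated at 1 day, and these cannot be told apart. The p-values measure the spread between these libraries.

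Total counts were 33077962 to 51942648 per library at 3 days and 40514177 to 168550985 at 21 days. Library kit and instrument differed between the follow-ups, so each was fitted alone and no test compares them. Nuclear ribosomal RNA loci took at most 0.257% of counts at 3 days but 0.746% to 78.1% at 21 days. This nuclear share was over 50% in 1 library each of 1d-MI + 21, 7d-SHAM + 21 and 1d-SHAM + 21. Mitochondrial ribosomal RNA, counted apart, took 2.89% to 25.8% of counts at 3 days and 1.54% to 32.5% at 21 days. Ventricular cardiomyocyte markers were detected in every 3-day group. Levels are CPM, counts scaled to library size after TMM normalisation. A gene was called at an adjusted p under 0.05, and log2 fold changes are given with their SE.

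Matrix metalloproteinases are zinc enzymes made as inactive proenzymes that together cleave most proteins of the extracellular matrix. ADAMTS proteases are secreted relatives with narrower substrates, among them procollagen, versican, aggrecan and von Willebrand factor. TIMPs bind the active site of these enzymes. In the infarcted heart the balance of proteases and inhibitors is known to bear on scar formation and ventricular dilatation.

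A cluster of 10 Mmp genes lies on chromosome 9 (chr9:7272514-7699585, GRCm38). It holds Mmp8, Mmp12, Mmp13 and Mmp27, which rose with MI in the mice operated at 7 days, and Mmp3, the fifth member of the cluster that was tested at 3 days. The 100 bases before their annotated starts are shown because 3 of these 5 genes hold TGANTCA, the recognition letters of the Fos/Jun (AP-1) factors. Sequences are RefSeq's (build GRCm38.p6, plus strand, 5′ to 3′). Capitals mark the letters, a palindrome searched on both strands, with no other motif searched.
Mmp12 (first start), chr9:7344297-7344396: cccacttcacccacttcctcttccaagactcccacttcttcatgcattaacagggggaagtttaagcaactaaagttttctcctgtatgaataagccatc
Mmp12 (second start), chr9:7347274-7347373: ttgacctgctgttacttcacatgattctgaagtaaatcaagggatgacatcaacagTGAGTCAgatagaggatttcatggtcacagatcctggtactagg
Mmp13, chr9:7272414-7272513: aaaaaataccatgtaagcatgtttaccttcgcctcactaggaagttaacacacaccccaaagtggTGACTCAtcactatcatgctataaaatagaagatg
Mmp3, chr9:7445722-7445821: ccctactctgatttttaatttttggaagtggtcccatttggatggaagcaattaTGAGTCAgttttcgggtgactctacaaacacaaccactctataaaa
Mmp8, chr9:7558329-7558428: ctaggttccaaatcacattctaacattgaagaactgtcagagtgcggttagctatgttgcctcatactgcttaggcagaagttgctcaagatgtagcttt
Mmp27, chr9:7571296-7571395: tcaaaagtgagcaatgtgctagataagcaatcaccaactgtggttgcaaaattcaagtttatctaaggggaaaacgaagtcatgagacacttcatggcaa
The letters began at position -35 in Mmp13, -44 at the second start of Mmp12 and -46 in Mmp3, where -1 is the base just before the start. Mmp8, Mmp27 and the first start of Mmp12 showed none. In windows from 250 bases before to 50 bases after the start, they occurred in 8 of 12 windows of the cluster (8 of 10 genes). They occurred in 0 of 23 windows of the 22 other members with a RefSeq entry. Of all 32851 windows of that length, 7.81% held them. RefSeq windows were used for 32 of 46 members, and the letters are a description of the sequence only.

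At 3 days, 41 of 46 members passed the filter on low counts and were tested with edgeR among 20345 genes. Mmp10, Mmp1a, Mmp1b, Mmp20 and Mmp7 did not pass. In 7d-MI + 3 against 7d-SHAM + 3, 20 members were higher and 6 lower, where 19.8% of all genes were higher and 14.2% lower. Their median log2 fold change was 0.89, and that of all genes 0.08. All 26 called members had groups that did not overlap, and the share of all genes that did so was not counted. In 1d-MI + 3 against 1d-SHAM + 3, 10 were higher and 2 lower, where 4.10% of all genes were higher and 4.36% lower. These medians were 0.55 over the members and 0.06 over all genes. A count from whole tissue cannot tell fewer cells of a type from less RNA per cell.

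The number called in mice operated at 1 day depended on single libraries. The titles of 1d-SHAM + 3 replicates 1 and 2 begin with 1078 and those of replicates 3 and 4 with 1103. Against the 1078 pair alone 1 member and 1.74% of all genes were called, and against the 1103 pair alone 23 members and 23.1%. In limma-voom with the title prefix as a random block, Timp1 and Mmp25 were called, beside 1.27% of all genes. Under that block 22 members were called in 7d-MI + 3 against 7d-SHAM + 3, beside 22.1% of all genes, and Adamts10, Adamts14, Mmp11 and Mmp25 were not. No title prefix at 3 days occurs in more than 1 group, and all 7d-SHAM + 3 titles begin with 1075. What the prefix marks and the group therefore cannot be told apart, with or without the block. Where all libraries gave 12, the count was 4 without either replicate 3 or 4 of 1d-SHAM + 3 and 7 without its replicate 1. Dropping 1d-MI + 3 replicate 1 gave 6, and dropping its replicate 2 or 4 gave 5. Under these omissions 3.05% to 5.95% of all genes were called. RLE and upper-quartile scaling both gave 11 higher and 0 lower, beside 7.35% and 6.95% of all genes. Leaving out 1 library kept the calls of 7d-MI + 3 against 7d-SHAM + 3 at 23 to 26.

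Among the inhibitors, Timp1 rose with MI at both ages, and Timp4 fell and Timp2 rose with MI at 7 days. Timp1 (chrX:20870166-20874735, plus strand) is an inhibitor induced by inflammatory cytokines. Timp1 had 114, 123, 52.7 and 98.4 CPM in 7d-MI + 3 hearts, against 3.53, 7.49, 5.69 and 5.998 CPM in 7d-SHAM + 3 hearts. In the mice operated at 1 day it had 13.7, 22.7, 9.86 and 34.4 CPM in 1d-MI + 3 hearts, against 4.18, 4.02, 6.29 and 3.66 CPM in 1d-SHAM + 3 hearts. Each MI group lay above its shams, and every 7d-MI + 3 library lay above every 1d-MI + 3 library. Timp1 showed a log2 fold change of 4.09 ± 0.40 with MI at 7 days (adjusted p = 1.99e-06). With MI at 1 day it changed by 2.15 ± 0.37 (adjusted p = 0.00455). Between 7d-MI + 3 and 1d-MI + 3 hearts it differed by 2.26 ± 0.36 (adjusted p = 0.00022). The MI effects differed between ages by 1.94 ± 0.51 (adjusted p = 0.0211), which was not called without 1d-SHAM + 3 replicate 3 (1.76, adjusted p = 0.0536).

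Timp4 (chr6:115241892-115252205, minus strand) is the inhibitor most restricted to the heart. Timp4 had 0.130, 0.309, 0.196 and 0.174 CPM in 7d-MI + 3 hearts, against 2.65, 3.31, 1.51 and 1.95 CPM in 7d-SHAM + 3 hearts. These groups did not overlap. Timp4 showed a log2 fold change of -3.52 ± 0.60 (adjusted p = 0.000113). After operation at 1 day it had 1.05, 0.603, 0.595 and 0.283 CPM in 1d-MI + 3 hearts, against 0.697, 0.507, 1.28 and 4.06 CPM in 1d-SHAM + 3 hearts. These groups overlapped, and the change was not called, at -1.35 ± 0.54 (adjusted p = 0.115). Between 7d-MI + 3 and 1d-MI + 3 hearts, which overlapped, it differed by -1.63 ± 0.58 (adjusted p = 0.0299). That difference between the MI groups for Timp4 was lost without 1d-MI + 3 replicate 1 or 7d-MI + 3 replicates 1, 3 or 4 (-1.26 to -1.60, adjusted p = 0.0563 to 0.116). Its MI effects were not called as different between ages, at -2.17 ± 0.78 (adjusted p = 0.0715).

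Timp2 inhibits MMPs and also helps to activate pro-MMP2 on the cell surface. Timp2 had 50.5, 62.1, 79.4 and 58.8 CPM in 7d-MI + 3 hearts, against 34.1, 33.2, 37.4 and 36.3 CPM in 7d-SHAM + 3 hearts. Timp2 showed a log2 fold change of 0.83 ± 0.15 (adjusted p = 0.000271). In the mice operated at 1 day it had 22.6, 16.5, 19.6 and 26.9 CPM in 1d-MI + 3 hearts, against 21.3, 17.0, 20.7 and 17.2 CPM in 1d-SHAM + 3 hearts. Those groups overlapped, with a change of 0.17 ± 0.15 (adjusted p = 0.481). The MI effects differed by 0.66 ± 0.22 (adjusted p = 0.0474). For Timp2 this difference of effects was lost without 1d-MI + 3 replicates 1, 2 or 3, 1d-SHAM + 3 replicates 1 or 3, 7d-MI + 3 replicates 2, 3 or 4 or 7d-SHAM + 3 replicates 1, 2, 3 or 4 (0.55 to 0.71, adjusted p = 0.0585 to 0.0977). Timp3, the inhibitor bound to the matrix, was called in no comparison at 3 days, with log2 fold changes of -0.07 with MI at 7 days and -0.12 with MI at 1 day. All the Timp genes overlap another gene (Syn1 for Timp1, Cep295nl for Timp2, Syn3 for Timp3, Syn2 and Gm17482 for Timp4). These overlaps are of whole gene spans, and whether exons are shared was not examined. Cep295nl lies on the strand of Timp2, so a strand setting would not separate that pair, while the other overlapping genes lie on the opposite strand. Without the strand setting of the counting, reads in shared stretches cannot be assigned with certainty.

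**Figure D1:**
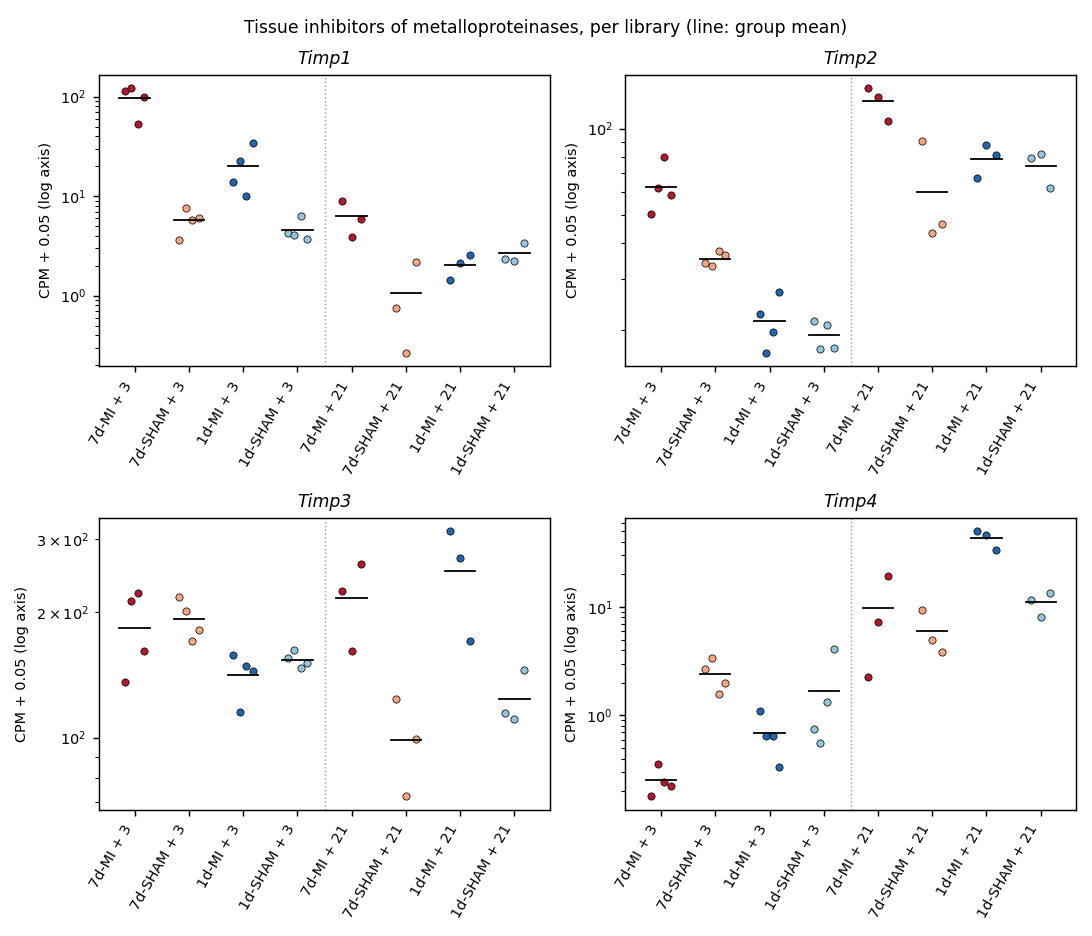
Level of each TIMP in each library (points) with the group mean (line), as CPM + 0.05 on a log axis, in the 8 groups, with a dotted line between the follow-ups. Timp1 stood at 52.7 CPM or more in 7d-MI + 3 hearts and at 34.4 CPM or less in every other library, and Timp4 at 0.309 CPM or less in 7d-MI + 3 hearts.

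Genes can be set against each other only per kb of gene length. The most abundant members at 3 days, as the mean of the 4 groups, were Timp1 (35.8 CPM per kb), Timp3 (20.6), Mmp14 (9.54), Timp2 (8.88), Mmp15 (8.61), Adamts1 (8.53) and Mmp2 (8.52). The 4 inhibitors summed to 148 ± 30.7 CPM per kb in 7d-MI + 3 hearts, against 40.8 ± 2.59 in 7d-SHAM + 3 hearts (SD, n = 4 each). Their sum was 46.0 ± 12.3 CPM per kb in 1d-MI + 3 hearts, against 30.1 ± 0.911 in 1d-SHAM + 3 hearts. Timp1 made up 72.3 ± 11.5% of this sum in 7d-MI + 3 hearts, against 15.7 ± 4.16% in 7d-SHAM + 3 hearts. It made up 47.0 ± 14.5% in 1d-MI + 3 hearts, against 16.9 ± 3.89% in 1d-SHAM + 3 hearts. In the sham hearts Timp3 had the largest share, 58.0 ± 4.49% in 7d-SHAM + 3 and 63.0 ± 4.51% in 1d-SHAM + 3. The Mmp sum per kb over the Timp sum was 0.388 ± 0.0808 in 7d-MI + 3 hearts, against 0.933 ± 0.0816 in 7d-SHAM + 3 hearts. This ratio was 0.619 ± 0.135 in 1d-MI + 3 hearts, against 0.791 ± 0.111 in 1d-SHAM + 3 hearts. Sums and shares are descriptions, without a test.

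**Figure D2:**
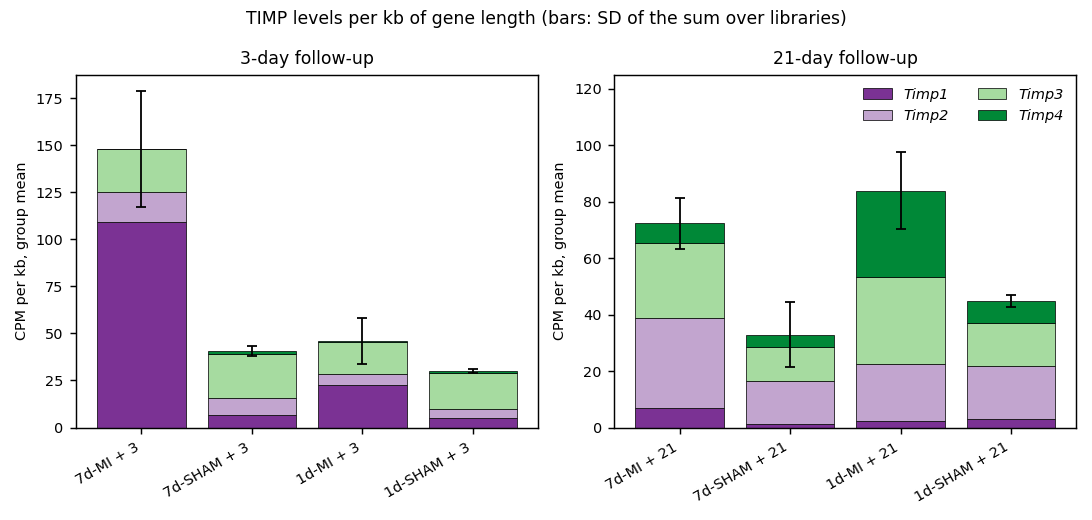
Stacked group means of the 4 TIMPs in CPM per kb of gene length at each follow-up, with the SD of their sum over libraries. The 7d-MI + 3 column averaged 148 CPM per kb, 72.3% of it Timp1, and at 21 days Timp4 took 36.3% of the 1d-MI + 21 column.

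The collagenases cut fibrillar collagen. Mmp8 (chr9:7558429-7568486, plus strand) is the collagenase of neutrophils. Mmp8 had 4.94, 3.75, 5.11 and 4.08 CPM in 7d-MI + 3 hearts, against 0, 0.124, 0.0512 and 0.163 CPM in 7d-SHAM + 3 hearts. After operation at 1 day it had 0.817, 1.09, 0.754 and 0.707 CPM in 1d-MI + 3 hearts, against 0.398, 0.486, 0.0886 and 0.333 CPM in 1d-SHAM + 3 hearts. All 7d-MI + 3 libraries lay above all others. Mmp8 showed a log2 fold change of 5.65 ± 0.53 with MI at 7 days (adjusted p = 2.21e-07). The 1-day groups did not overlap, but their change, 1.35 ± 0.44 (adjusted p = 0.0571), was not called. Between ages the MI effect differed by 4.29 ± 0.68 (adjusted p = 0.000673), also with any 1 library left out. Mmp13 had 0.743, 1.10, 0.705 and 0.651 CPM in 7d-MI + 3 hearts, against 0.272, 0, 0 and 0 CPM in 7d-SHAM + 3 hearts. Mmp13 (collagenase 3) thus rose without overlap, by 3.60 ± 1.12 (adjusted p = 0.0165).

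The gelatinases cut denatured collagen and type IV collagen. Mmp9 (gelatinase B, chr2:164940780-164955850, plus strand) is stored in neutrophils. Mmp9 had 1.67, 3.09, 3.37 and 1.65 CPM in 7d-MI + 3 hearts, against 0, 0.124, 0.154 and 0.271 CPM in 7d-SHAM + 3 hearts. Mmp9 showed a log2 fold change of 4.09 ± 0.59 with MI at 7 days (adjusted p = 2.31e-05). In the mice operated at 1 day it had 1.21, 1.36, 1.45 and 1.11 CPM in 1d-MI + 3 hearts, against 0.239, 0.655, 0.177 and 0.133 CPM in 1d-SHAM + 3 hearts. Neither pair of groups overlapped, and the second change was 2.06 ± 0.53 (adjusted p = 0.0241). For Mmp9 the 1-day call was lost without 1d-MI + 3 replicate 2 or 1d-SHAM + 3 replicates 1, 3 or 4 (1.82 to 2.02, adjusted p = 0.0534 to 0.0713). Mmp2 (gelatinase A), which fibroblasts make, was called with MI at neither age, at -0.06 ± 0.23 (adjusted p = 0.885) in the mice operated at 7 days and 0.05 ± 0.24 (adjusted p = 0.898) in those operated at 1 day. It was higher in 7d-MI + 3 hearts than in 1d-MI + 3 hearts, by 1.18 ± 0.24 (adjusted p = 0.000815). Between 7d-SHAM + 3 and 1d-SHAM + 3 hearts it differed by 1.30 ± 0.24 (adjusted p = 0.00101).

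Mmp12 (chr9:7344381-7369499, plus strand, overlapping Mmp1b) is the elastase of macrophages. Mmp12 had 49.5, 39.4, 14.1 and 30.9 CPM in 7d-MI + 3 hearts, against 0, 0.124, 0.0512 and 0.326 CPM in 7d-SHAM + 3 hearts. After operation at 1 day it had 3.96, 13.5, 1.67 and 16.2 CPM in 1d-MI + 3 hearts, against 0.299, 0.254, 0.487 and 0.466 CPM in 1d-SHAM + 3 hearts. Each MI group lay above its shams. Mmp12 showed a log2 fold change of 7.98 ± 0.92 with MI at 7 days (adjusted p = 2.24e-05). With MI at 1 day it changed by 4.57 ± 0.77 (adjusted p = 0.00531). Between 7d-MI + 3 and 1d-MI + 3 hearts, which overlapped, it differed by 1.92 ± 0.61 (adjusted p = 0.0221). For Mmp12 that difference between the MI groups was lost without 1d-MI + 3 replicate 1 or 7d-MI + 3 replicate 1 (1.68 to 1.71, adjusted p = 0.0569 to 0.0577). The difference of its MI effects was not called, at 3.41 ± 1.27 (adjusted p = 0.0969).

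Mmp19, a protease of basement membrane and other matrix proteins that overlaps Tmem198b, rose at both ages. Mmp19 showed a log2 fold change of 2.35 ± 0.30 with MI at 7 days (adjusted p = 7.02e-06). With MI at 1 day it changed by 1.27 ± 0.30 (adjusted p = 0.0170). For Mmp19 the 1-day call was lost without 1d-MI + 3 replicate 2 or 1d-SHAM + 3 replicate 4 (1.10 to 1.18, adjusted p = 0.0504 to 0.0653). Mmp27 had 0.334, 1.10, 0.705 and 0.694 CPM in 7d-MI + 3 hearts, against 0, 0, 0 and 0 CPM in 7d-SHAM + 3 hearts. Mmp27 was therefore at least 32.4-fold higher, against a floor of 3 counts over the sham group. In the mice operated at 1 day it had 0.251, 0.402, 0.119 and 0.407 CPM in 1d-MI + 3 hearts, against 0.179, 0.211, 0 and 0 CPM in 1d-SHAM + 3 hearts, and these groups overlapped. Its MI effects differed at an adjusted p of 0.0326, where the fitted difference is no bound. Mmp27 was not called as different without 1d-MI + 3 replicate 1, 1d-SHAM + 3 replicate 1 or 2, 7d-MI + 3 replicate 2 or 4, or any 7d-SHAM + 3 library (adjusted p = 0.0515 to 0.0663). Among the stromelysins, Mmp11, which overlaps Chchd10, was lower in 7d-MI + 3 hearts, at -0.65 ± 0.23 (adjusted p = 0.0335). Mmp11 was not called without 7d-MI + 3 replicates 2, 3 or 4 or 7d-SHAM + 3 replicates 1 or 4 (-0.45 to -0.67, adjusted p = 0.0574 to 0.190). Mmp3 was not called, at 2.67 ± 1.58 (adjusted p = 0.213) with MI at 7 days and 2.70 ± 1.58 (adjusted p = 0.267) with MI at 1 day.

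**Figure D3:**
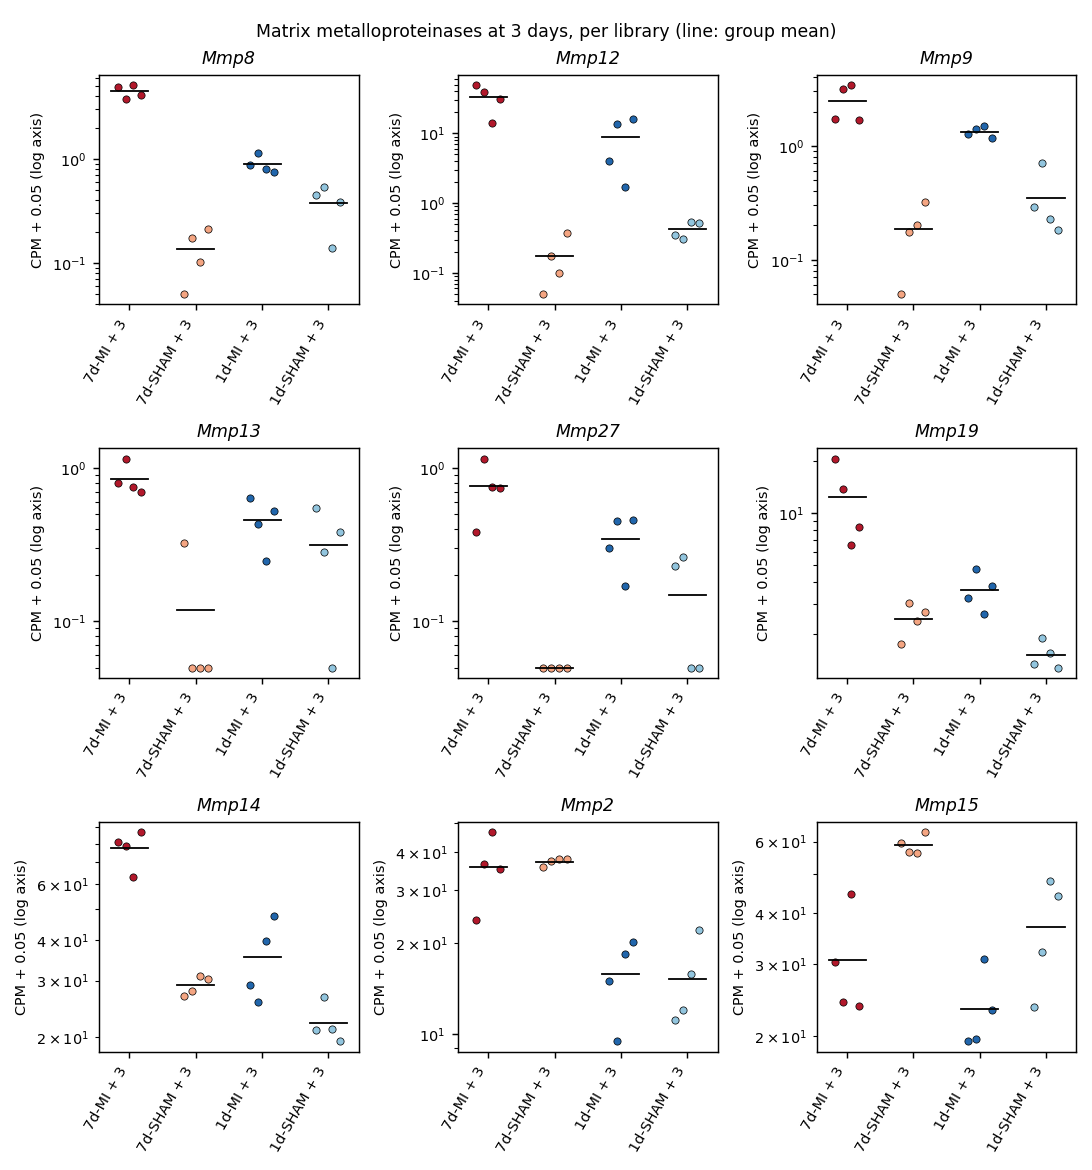
CPM + 0.05 (log axis) of 9 MMPs in each library at 3 days (points), with group means as lines. Mmp8, Mmp12, Mmp9, Mmp13, Mmp27, Mmp19 and Mmp14 lay higher in all 7d-MI + 3 libraries than in all 7d-SHAM + 3 libraries, Mmp15 lay lower, and Mmp2 overlapped.

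The membrane-anchored MMPs cut matrix at the cell surface. Mmp14 (MT1-MMP, chr14:54431612-54441265, plus strand) activates pro-MMP2. Mmp14 had 81.0, 78.7, 63.0 and 86.8 CPM in 7d-MI + 3 hearts, against 26.8, 27.8, 31.0 and 30.3 CPM in 7d-SHAM + 3 hearts. Mmp14 showed a log2 fold change of 1.42 ± 0.17 with MI at 7 days (adjusted p = 2.64e-06). After operation at 1 day it had 29.0, 25.8, 39.8 and 47.7 CPM in 1d-MI + 3 hearts, against 21.0, 26.7, 21.2 and 19.4 CPM in 1d-SHAM + 3 hearts. These groups overlapped, with a change of 0.69 ± 0.17 (adjusted p = 0.0176). The 1-day call for Mmp14 was lost without 1d-MI + 3 replicate 4 or 1d-SHAM + 3 replicates 3 or 4 (0.51 to 0.66, adjusted p = 0.0562 to 0.0743). Its MI effects differed by 0.73 ± 0.23 (adjusted p = 0.0451). For Mmp14 this difference of effects was lost without 1d-MI + 3 replicates 1 or 2, 1d-SHAM + 3 replicates 1, 2 or 3, 7d-MI + 3 replicates 1, 2 or 4 or 7d-SHAM + 3 replicates 1, 2, 3 or 4 (0.60 to 0.78, adjusted p = 0.0564 to 0.0952).

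Mmp16 had 17.6, 24.0, 18.7 and 26.2 CPM in 7d-MI + 3 hearts, against 11.2, 12.9, 10.5 and 10.9 CPM in 7d-SHAM + 3 hearts. Mmp16 (MT3-MMP) thus rose without overlap, by 0.92 ± 0.19 (adjusted p = 0.000754). With MI at 1 day it was not called, at -0.31 ± 0.19 (adjusted p = 0.286), and the MI effects differed by 1.24 ± 0.27 (adjusted p = 0.00513), also with any 1 library left out. Mmp15 had 30.3, 24.2, 44.6 and 23.6 CPM in 7d-MI + 3 hearts, against 59.4, 56.6, 56.2 and 63.3 CPM in 7d-SHAM + 3 hearts. Mmp15 (MT2-MMP) fell by 0.94 ± 0.22 on the log2 scale (adjusted p = 0.00243). Mmp23, a membrane-tethered MMP, rose with MI at 7 days, by 1.42 ± 0.24 (adjusted p = 0.000115).

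Mmp24 (MT5-MMP), which overlaps BC029722, went the other way. It had 3.00, 3.19, 1.61 and 2.05 CPM in 1d-MI + 3 hearts, against 0.617, 0.698, 0.753 and 1.63 CPM in 1d-SHAM + 3 hearts, and 1 library of each group overlapped. Mmp24 showed a log2 fold change of 1.43 ± 0.31 with MI at 1 day (adjusted p = 0.0101). With MI at 7 days it was not called, at -0.13 ± 0.30 (adjusted p = 0.805). The MI effects differed by -1.56 ± 0.43 (adjusted p = 0.0211). For Mmp24 this difference of effects was lost without 1d-MI + 3 replicate 1 or 7d-SHAM + 3 replicate 4 (-1.41 to -1.45, adjusted p = 0.0515 to 0.0531). Mmp17 (MT4-MMP) was called with MI at 1 day, at 1.41 ± 0.42 (adjusted p = 0.0427). Mmp17 was not called without 1d-MI + 3 replicates 1, 2 or 4 or 1d-SHAM + 3 replicates 1, 3 or 4 (1.14 to 1.43, adjusted p = 0.0765 to 0.154).

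The procollagen N-propeptidases trim collagen precursors before fibrils form. Adamts2 (chr11:50602084-50807573, plus strand) acts on procollagens of the fibrillar types. Adamts2 had 67.0, 84.3, 84.0 and 84.3 CPM in 7d-MI + 3 hearts, against 26.6, 30.6, 31.9 and 28.6 CPM in 7d-SHAM + 3 hearts. Adamts2 showed a log2 fold change of 1.44 ± 0.16 with MI at 7 days (adjusted p = 1.54e-06). In the mice operated at 1 day it had 24.6, 14.6, 19.5 and 27.2 CPM in 1d-MI + 3 hearts, against 13.3, 13.7, 17.8 and 16.2 CPM in 1d-SHAM + 3 hearts. All 7d-MI + 3 libraries lay above all others, while the 1-day groups overlapped, at 0.50 ± 0.16 (adjusted p = 0.0593). Between ages the MI effect differed by 0.95 ± 0.23 (adjusted p = 0.0101), also with any 1 library left out, a call lost with the title prefix as a block (adjusted p = 0.0678). Adamts14 rose with MI at 7 days by 1.59 ± 0.35 (adjusted p = 0.00127) and with MI at 1 day by 1.14 ± 0.33 (adjusted p = 0.0402). The 1-day call for Adamts14 was lost without 1d-MI + 3 replicates 1, 2 or 4 or 1d-SHAM + 3 replicates 1, 3 or 4 (0.93 to 1.18, adjusted p = 0.0717 to 0.148). Adamts3, which also takes part in the processing of VEGF-C, fell, at -0.93 ± 0.20 (adjusted p = 0.00108) with MI at 7 days and -0.64 ± 0.20 (adjusted p = 0.0485) with MI at 1 day. The 1-day call for Adamts3 was lost without 1d-MI + 3 replicates 1, 2 or 4 or 1d-SHAM + 3 replicates 1, 2, 3 or 4 (-0.46 to -0.71, adjusted p = 0.0608 to 0.129).

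Of 7 tested ADAMTS genes that cleave versican, aggrecan and other proteoglycans, 4 rose and 0 fell with MI at 7 days. Of all genes, 19.8% rose and 14.2% fell there. Adamts4, which overlaps another gene, is an aggrecanase. Adamts4 had 6.11, 8.20, 4.52 and 7.31 CPM in 7d-MI + 3 hearts, against 1.46, 1.55, 1.84 and 1.47 CPM in 7d-SHAM + 3 hearts. Adamts4 showed a log2 fold change of 2.04 ± 0.26 with MI at 7 days (adjusted p = 5.39e-06). After operation at 1 day it had 3.10, 4.82, 2.86 and 2.83 CPM in 1d-MI + 3 hearts, against 2.43, 2.41, 2.37 and 1.20 CPM in 1d-SHAM + 3 hearts. Neither pair overlapped, but the second change, 0.68 ± 0.25 (adjusted p = 0.0900), was not called. The MI effects differed by 1.36 ± 0.36 (adjusted p = 0.0156), also with any 1 library left out, a call lost with the title prefix as a block (adjusted p = 0.127). Adamts8 had 8.13, 10.5, 15.2 and 14.1 CPM in 7d-MI + 3 hearts, against 2.21, 1.98, 2.59 and 3.58 CPM in 7d-SHAM + 3 hearts. Adamts8 thus rose without overlap, by 2.205 ± 0.35 (adjusted p = 7.64e-05), and was not called with MI at 1 day, at 0.61 ± 0.33 (adjusted p = 0.237). Its MI effects differed by 1.60 ± 0.47 (adjusted p = 0.0324). For Adamts8 this difference of effects was lost without 1d-MI + 3 replicates 1, 2 or 3, 1d-SHAM + 3 replicates 1 or 3, 7d-MI + 3 replicates 3 or 4 or 7d-SHAM + 3 replicates 1, 2 or 3 (1.34 to 1.62, adjusted p = 0.0516 to 0.0731).

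Adamts5, the other main aggrecanase, separated narrowly. Adamts5 had 43.5, 87.7, 73.1 and 76.5 CPM in 7d-MI + 3 hearts, against 43.3, 35.0, 38.1 and 40.2 CPM in 7d-SHAM + 3 hearts. Adamts5 showed a log2 fold change of 0.84 ± 0.20 (adjusted p = 0.00275). Adamts20 rose with MI at 7 days by 2.12 ± 0.41 (adjusted p = 0.000415) and with MI at 1 day by 1.56 ± 0.39 (adjusted p = 0.0218). The 1-day call for Adamts20 was lost without 1d-MI + 3 replicates 1, 2 or 4 or 1d-SHAM + 3 replicate 3 (1.44 to 1.52, adjusted p = 0.0506 to 0.0691). Adamts9 was lower in 1d-MI + 3 hearts, at -0.47 ± 0.14 (adjusted p = 0.0497). The 1-day call for Adamts9 was lost without 1d-MI + 3 replicates 1, 2 or 4 or 1d-SHAM + 3 replicates 1, 3 or 4 (-0.39 to -0.51, adjusted p = 0.0580 to 0.163). Adamts1 and Adamts15 were called with MI at neither age.

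Adamts12 and Adamts7 both cleave cartilage oligomeric matrix protein, and with MI at 7 days the first rose and the second fell. Adamts12 had 39.2, 50.5, 46.9 and 57.8 CPM in 7d-MI + 3 hearts, against 32.1, 23.0, 25.7 and 23.9 CPM in 7d-SHAM + 3 hearts. Adamts12 showed a log2 fold change of 0.89 ± 0.18 with MI at 7 days (adjusted p = 0.000556). With MI at 1 day it was not called, at -0.06 ± 0.18 (adjusted p = 0.834), and the MI effects differed by 0.96 ± 0.25 (adjusted p = 0.0159), also with any 1 library left out, a call lost with the title prefix as a block (adjusted p = 0.0705). Adamts7 had 3.66, 5.09, 5.70 and 4.73 CPM in 7d-MI + 3 hearts, against 14.3, 9.29, 8.86 and 8.71 CPM in 7d-SHAM + 3 hearts. Adamts7 showed a log2 fold change of -1.10 ± 0.22 (adjusted p = 0.000625). Its gene span overlaps that of Tbc1d2b on the opposite strand, and reads in shared stretches cannot be assigned with certainty.

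Adamts19, whose loss causes heart valve disease in humans and mice, also fell. Adamts19 had 7.11, 4.72, 6.35 and 5.53 CPM in 7d-MI + 3 hearts, against 14.1, 11.6, 13.0 and 10.6 CPM in 7d-SHAM + 3 hearts. Adamts19 showed a log2 fold change of -1.05 ± 0.20 (adjusted p = 0.000304). Adamts10, a protease tied to fibrillin microfibrils, was higher with MI at 7 days, at 0.76 ± 0.24 (adjusted p = 0.0177). Adamts10 was not called without 7d-MI + 3 replicate 2 or 7d-SHAM + 3 replicate 1 (0.59 to 0.66, adjusted p = 0.0655 to 0.0872).

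**Figure D4:**
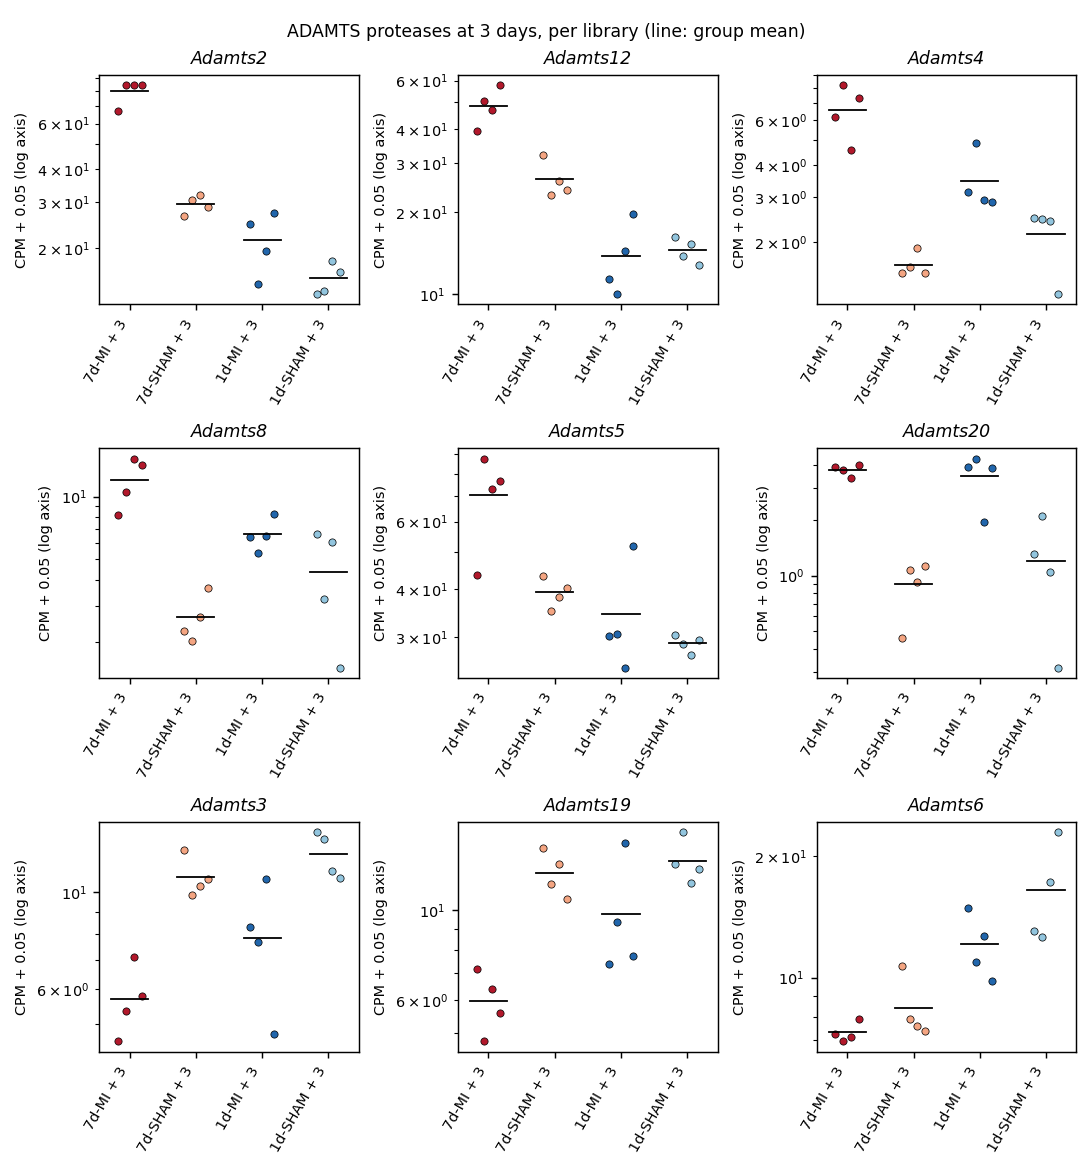
CPM + 0.05 (log axis) of 9 ADAMTS genes in each library at 3 days (points), with group means as lines. Adamts2, Adamts12, Adamts4, Adamts8, Adamts5 and Adamts20 lay higher in all 7d-MI + 3 libraries than in all 7d-SHAM + 3 libraries, and Adamts3 and Adamts19 lay lower.

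The MI effect at 7 days less that at 1 day was called for 11 members, 10 positive and 1 negative, where 9.01% of all genes were positive and 4.07% negative. The positive ones were Timp1, Timp2, Mmp8, Mmp14, Mmp16, Mmp27, Adamts2, Adamts4, Adamts8 and Adamts12, and the negative one was Mmp24. Calls for Mmp8, Mmp16, Adamts2, Adamts4 and Adamts12 held with any 1 library left out. With the title prefix as a random block in limma-voom, Mmp8 and Mmp16 stayed called, beside 4.17% of all genes, and the other 9 had adjusted p = 0.0678 to 0.273. Without that block limma-voom called 8, beside 2382 of 20345 genes. In edgeR the count fell to 6 without 1d-MI + 3 replicate 1, beside 1981 of 20747 genes. It was 7 when 1d-SHAM + 3 replicate 1 or 3, 7d-MI + 3 replicate 4 or 7d-SHAM + 3 replicate 2, 3 or 4 was left out. Beside these stood 1826 of 22141 to 2349 of 21954 genes. Upper-quartile scaling gave 6 positive and 3 negative, beside 2772 of 20345 genes, and moved the median of all genes by -0.24. Against the 1078 pair of shams alone 11 members and 11.5% of all genes were called, and against the 1103 pair alone 8 and 13.4%. Adamts13 and Mmp13 had larger fitted differences than most of these but were not called (-5.10, adjusted p = 0.196, and 2.98, adjusted p = 0.190). The comparisons share their groups.

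**Figure D5:**
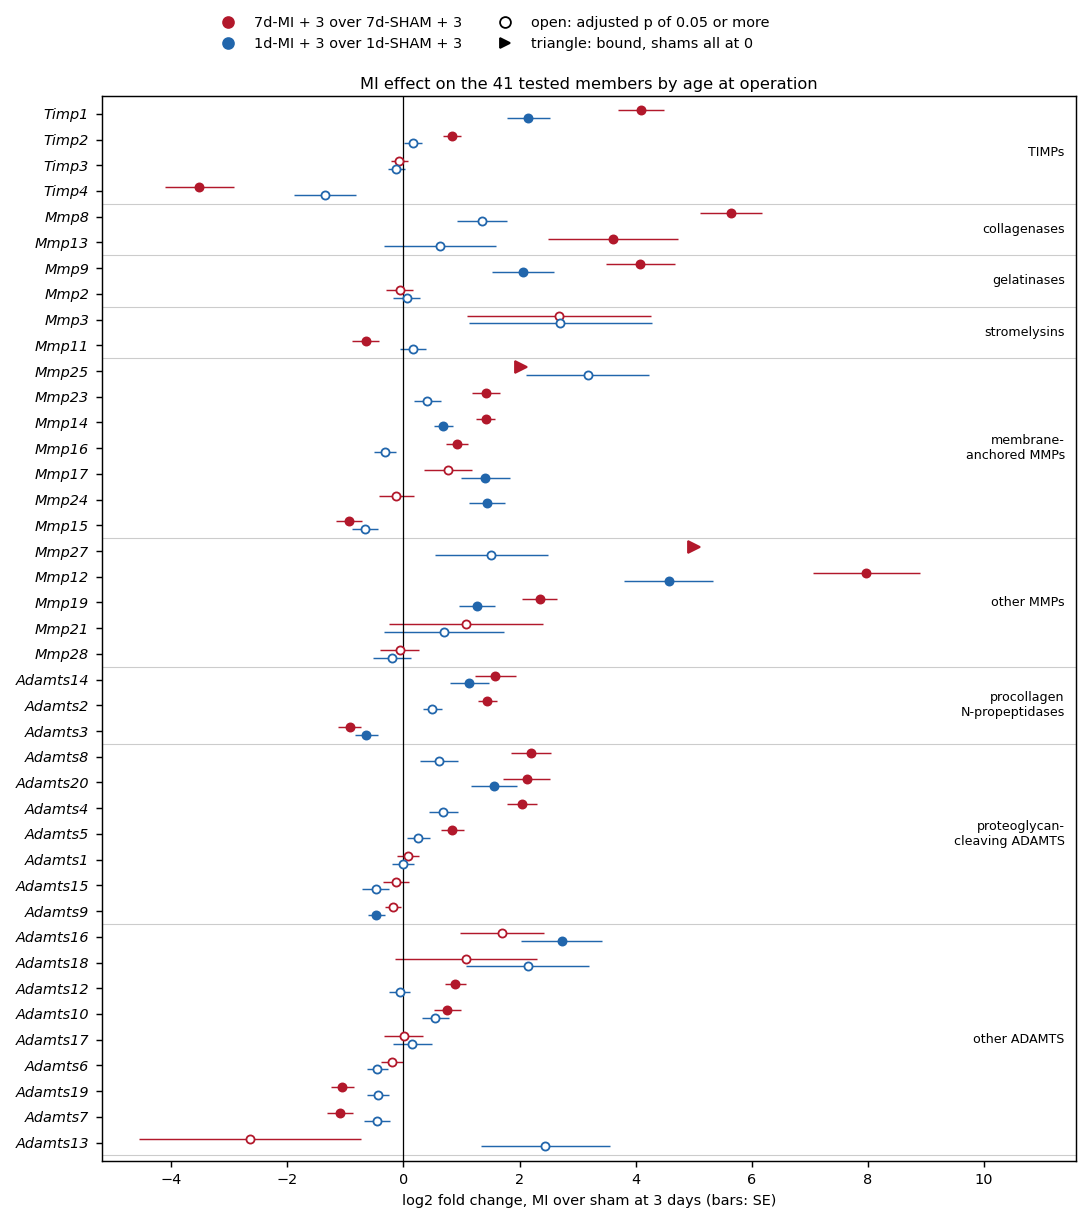
Log2 fold change (SE as bars) with MI at 3 days for the 41 tested members by class, in mice operated at 7 days (red) and 1 day (blue). Filled symbols are called, and triangles are lower bounds for genes at 0 in all sham libraries. Mmp12 lies farthest right at 7.98, followed by Mmp8 at 5.65, and Timp4 lies at -3.52.

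Between 7d-MI + 3 and 1d-MI + 3 hearts 25 members differed, 17 higher and 8 lower, where 19.4% of all genes were higher and 23.5% lower. Among the higher ones were Adamts2 at 1.89 ± 0.17 (adjusted p = 1.65e-07), Adamts12 at 1.82 ± 0.18 (adjusted p = 6.34e-07) and Timp2 at 1.55 ± 0.16 (adjusted p = 6.41e-07). Mmp14 differed by 1.12 ± 0.17 (adjusted p = 3.99e-05), Mmp16 by 1.21 ± 0.19 (adjusted p = 6.83e-05) and Mmp19 by 1.79 ± 0.29 (adjusted p = 0.000107). Mmp8 differed by 2.41 ± 0.41 (adjusted p = 0.000163), Mmp23 by 1.10 ± 0.24 (adjusted p = 0.00121) and Adamts5 by 1.03 ± 0.20 (adjusted p = 0.000584). Adamts1 (0.72), Adamts15 (1.07) and Adamts4 (0.94) were also called higher. Adamts8 was higher by 0.86 ± 0.33 (adjusted p = 0.0400) and Adamts9 by 0.46 ± 0.14 (adjusted p = 0.0150). Adamts8 was not called without 1d-MI + 3 replicates 1, 2 or 3 or 7d-MI + 3 replicates 2, 3 or 4 (0.74 to 0.93, adjusted p = 0.0503 to 0.108). Adamts9 was not called without 1d-MI + 3 replicate 1 or 7d-MI + 3 replicate 2 (0.38 to 0.39, adjusted p = 0.0525 to 0.0611). Adamts19 was lower in 7d-MI + 3 hearts, at -0.71 ± 0.20 (adjusted p = 0.00666), as was Adamts6, a protease tied to microfibrils, at -0.73 ± 0.19 (adjusted p = 0.00423).

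The other lower members stood at very low counts. Adamts13, which cleaves von Willebrand factor, was at 0 in all 7d-MI + 3 libraries and at 1.07, 2.12, 0.278 and 0.742 CPM in 1d-MI + 3 hearts. Against a floor of 3 counts over the 7d-MI + 3 group it was 68.4-fold lower. This is no strict bound, because background reads make up 42.8 of its 202 counts in 1d-MI + 3 hearts by expectation. Mmp25 (MT6-MMP) differed by -3.31 ± 1.06 (adjusted p = 0.0186) and Adamts16 by -1.85 ± 0.66 (adjusted p = 0.0299). Adamts18 differed by -3.08 ± 1.11 (adjusted p = 0.0309) and Mmp21 by -3.17 ± 1.16 (adjusted p = 0.0326). Mmp25 was not called without 7d-MI + 3 replicate 2 (-3.05, adjusted p = 0.0521). Adamts16 was not called without 1d-MI + 3 replicates 1, 2 or 4 or 7d-MI + 3 replicates 2 or 3 (-1.61 to -1.78, adjusted p = 0.0629 to 0.0829). Adamts18 was not called without 1d-MI + 3 replicates 1 or 2 or 7d-MI + 3 replicates 1, 2 or 4 (-2.67 to -3.16, adjusted p = 0.0569 to 0.0777). Mmp21 was not called without 1d-MI + 3 replicates 1, 2 or 4 or 7d-MI + 3 replicates 2, 3 or 4 (-2.74 to -3.17, adjusted p = 0.0580 to 0.0971). Reads over olfactory and vomeronasal receptor genes, used as a measure of background, averaged 0.0112 CPM per kb in 7d-MI + 3 hearts and 0.0450 in 1d-MI + 3 hearts. In the group where each stood highest, its counts summed over the libraries were 4.72 (Adamts13), 6.11 (Mmp25), 5.63 (Adamts16), 3.35 (Adamts18) and 4.06 (Mmp21) times the background expected for its length. With that background subtracted Adamts16 and Mmp21 were no longer called, and Adamts13, Adamts18 and Mmp25 were.

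Adamts16 was also called in 1d-MI + 3 hearts against their shams, at 2.73 ± 0.70 (adjusted p = 0.0231). The 1-day call for Adamts16 was lost without 1d-MI + 3 replicates 1, 2 or 4 or 1d-SHAM + 3 replicates 1, 3 or 4 (2.51 to 2.67, adjusted p = 0.0526 to 0.0719). Mmp25 and Adamts13 were not called there, at 3.17 ± 1.06 (adjusted p = 0.0684) and 2.45 ± 1.11 (adjusted p = 0.165). Mmp25 was at least 4.07-fold higher in 7d-MI + 3 hearts than in 7d-SHAM + 3 hearts, where it was at 0. That call was lost without 7d-MI + 3 replicates 1 or 4 or 7d-SHAM + 3 replicates 1, 2, 3 or 4 (adjusted p = 0.0507 to 0.0650), and with the background subtracted.

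Between the shams, 8 members were higher in 7d-SHAM + 3 hearts than in 1d-SHAM + 3 hearts and 4 lower, where 8.12% of all genes were higher and 12.2% lower. Adamts2 was higher by 0.95 ± 0.16 (adjusted p = 0.000462), Timp2 by 0.89 ± 0.15 (adjusted p = 0.000516), Adamts12 by 0.86 ± 0.18 (adjusted p = 0.00246) and Mmp24 by 1.29 ± 0.31 (adjusted p = 0.00723). Adamts1 (0.63), Adamts15 (0.72) and Mmp15 (0.68) completed these with Mmp2. Adamts1 was not called without 1d-SHAM + 3 replicates 3 or 4 or 7d-SHAM + 3 replicates 2, 3 or 4 (0.49 to 0.66, adjusted p = 0.0534 to 0.111). Adamts15 was not called without 1d-SHAM + 3 replicates 1, 2, 3 or 4 or 7d-SHAM + 3 replicates 2, 3 or 4 (0.58 to 0.74, adjusted p = 0.0542 to 0.122). Mmp15 was not called without 1d-SHAM + 3 replicates 1 or 2 or 7d-SHAM + 3 replicates 1, 2, 3 or 4 (0.51 to 0.69, adjusted p = 0.0688 to 0.114). Adamts6 was lower, at -0.98 ± 0.19 (adjusted p = 0.00122), as was Mmp8, at -1.89 ± 0.56 (adjusted p = 0.0225). Mmp8 was not called without 1d-SHAM + 3 replicates 1 or 2 or 7d-SHAM + 3 replicates 1 or 3 (-1.54 to -1.78, adjusted p = 0.0548 to 0.0768). Mmp25 and Mmp27 were at 0 in all 7d-SHAM + 3 libraries, at least 4.78-fold and 5.05-fold lower. The Mmp25 call was lost without 1d-SHAM + 3 replicate 2 or 7d-SHAM + 3 replicates 1, 2, 3 or 4, and the Mmp27 call without 1d-SHAM + 3 replicates 1 or 2 or 7d-SHAM + 3 replicates 1, 2, 3 or 4, at adjusted p = 0.0650 to 0.280. Neither was called with the background subtracted. Against the 1078 pair alone 17 members and 30.1% of all genes were called, and against the 1103 pair alone 7 members and 6.23%. With the title prefix as a block 6 members and 5.96% of all genes were. Leaving out 7d-SHAM + 3 replicate 2, 3 or 4 gave 7, 6 and 7 calls, beside 11.2% to 11.7% of all genes. Adamts17, Mmp28, Mmp3 and Timp3 were called in no comparison at 3 days.

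Markers of other cell types moved with the MI groups. Of all genes, 19.8% were higher and 14.2% lower with MI at 7 days, and 4.10% and 4.36% with MI at 1 day. Neutrophil markers summed to 33.3 to 75.1 CPM in 7d-MI + 3 hearts, against 2.60 to 5.10 CPM in 7d-SHAM + 3 hearts, with 8 of 9 higher. They summed to 20.9 to 28.03 CPM in 1d-MI + 3 hearts, against 4.74 to 8.29 CPM in 1d-SHAM + 3 hearts, with 4 of 9 higher. Monocyte and macrophage markers summed to 304 to 524 CPM in 7d-MI + 3 hearts, against 105 to 139.7 CPM in 7d-SHAM + 3 hearts, with 10 of 10 higher. They summed to 81.6 to 203 CPM in 1d-MI + 3 hearts, against 42.3 to 62.9 CPM in 1d-SHAM + 3 hearts, with 5 of 10 higher. Fibroblast markers summed to 4342 to 4916 CPM in 7d-MI + 3 hearts, against 2407 to 2759 CPM in 7d-SHAM + 3 hearts, with 6 of 9 higher and 3 lower. They summed to 1260.2 to 2458 CPM in 1d-MI + 3 hearts, against 1843 to 2382 CPM in 1d-SHAM + 3 hearts, with 2 of 9 higher and 2 lower. Ventricular cardiomyocyte markers summed to 27683 to 62998 CPM in 7d-MI + 3 hearts, against 49279 to 54012 CPM in 7d-SHAM + 3 hearts, with 0 of 8 higher and 5 lower. They summed to 18357 to 26865 CPM in 1d-MI + 3 hearts, against 31514 to 34369 CPM in 1d-SHAM + 3 hearts, with 0 of 8 higher and 2 lower. Of other lists with MI at 7 days, mural and smooth muscle markers were 5 of 7 higher and 2 lower. Their sum was nevertheless lower, at 914 to 1258 CPM in 7d-MI + 3 hearts, against 1464 to 1523 CPM in 7d-SHAM + 3 hearts. Endothelial markers were 1 of 7 higher and 3 lower, and valve and cartilage-like markers 2 of 7 higher and 0 lower. None of the neutrophil, macrophage, fibroblast or cardiomyocyte genes was at 0 in all libraries of a 3-day group. No member is in a marker list, and the part of these cells in the members' changes was not tested.

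Among neighbouring pathways, 6 of 9 tested genes of plasminogen activation, a route to MMP activation, were higher and 1 lower with MI at 7 days. With MI at 1 day there were 0 of either. Of all genes, 19.8% were higher and 14.2% lower with MI at 7 days, and 4.10% and 4.36% with MI at 1 day. The same shares stand beside the pathway lists that follow. The higher ones included Plau (2.69 ± 0.24, adjusted p = 1.14e-07), the urokinase gene, and Serpine2 (1.15 ± 0.15, adjusted p = 8.62e-06), a serine protease inhibitor. The lower one was Serpini1 (-1.10 ± 0.16, adjusted p = 2.32e-05). The MI effects differed in 5 of these plasminogen genes, among them Plau by 1.98, where 9.01% of all genes were positive and 4.07% negative.

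Of 18 matrix substrates, 13 were higher and 2 lower with MI at 7 days, and 5 higher and 1 lower with MI at 1 day. Col1a1 (3.23 ± 0.21, adjusted p = 6.14e-09), Fn1 (3.34 ± 0.22, adjusted p = 6.14e-09) and Vcan (1.85 ± 0.15, adjusted p = 5.02e-08), which encode collagen I, fibronectin and versican, had the smallest p among the higher. Ltbp1 (-0.96 ± 0.15, adjusted p = 5.41e-05) and Dcn (-0.82 ± 0.16, adjusted p = 0.000446), a latent TGF-beta binding protein and decorin, were lower. The MI effects differed for Vcan by 1.83, for Col1a1 by 1.97 and for Fn1 by 1.86.

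Of 14 tested ADAM and ADAMTS-like genes, 8 were higher and 1 lower with MI at 7 days, and 6 higher and 1 lower with MI at 1 day. The higher ones included Adam12 (2.86 ± 0.22, adjusted p = 2.65e-08), Adam8 (7.03 ± 0.71, adjusted p = 2.93e-06) and Adamtsl2 (3.15 ± 0.37, adjusted p = 6.13e-06), and the lower one was Papln (-1.12 ± 0.27, adjusted p = 0.00319). Of 10 other MMP regulators, 4 were higher and 2 lower with MI at 7 days, and 0 higher and 1 lower with MI at 1 day. The thrombospondin genes Thbs1 (2.49 ± 0.34, adjusted p = 3.42e-05) and Thbs2 (1.14 ± 0.19, adjusted p = 9.31e-05) were higher, as was Tfpi2 (1.65 ± 0.33, adjusted p = 0.000516), a protease inhibitor. Bsg (-0.82 ± 0.18, adjusted p = 0.00128), an inducer of MMPs, and Pcsk6 (-1.05 ± 0.23, adjusted p = 0.00181), a proprotein convertase, were lower. Of 12 tested tolloid, HtrA and serine proteases, 4 were higher and 2 lower with MI at 7 days, and 0 higher and 2 lower with MI at 1 day. The higher ones included Prss23 (1.496 ± 0.27, adjusted p = 0.000303), Bmp1 (0.78 ± 0.16, adjusted p = 0.000569), the procollagen C-proteinase, and Tll1 (1.72 ± 0.47, adjusted p = 0.00657). Dpp4 (-1.17 ± 0.22, adjusted p = 0.000384) and Tll2 (-1.13 ± 0.42, adjusted p = 0.0441) were lower.

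At 21 days 43 of 46 members were tested among 24646 genes, and Mmp10, Mmp1a and Mmp7 did not pass the filter. edgeR called 0 members in every comparison. Of all genes it called 0.0325% in 7d-MI + 21 against 1d-MI + 21, 0% between 7d-MI + 21 and 7d-SHAM + 21 and 0.0162% between 1d-MI + 21 and 1d-SHAM + 21. It called 0% between the shams and 0% for the difference of the MI effects. At an unadjusted p under 0.05 there were 10, 18, 10, 2 and 4 members in these comparisons, taken in that order, beside 6.52%, 16.7%, 14.6%, 1.79% and 3.76% of all genes. DESeq2 called 3 in the first (Timp4, Mmp2 and Mmp12), 7 in the second (Timp1, Timp2, Timp3, Mmp2, Mmp14, Mmp23 and Adamts2), 2 in the third (Adamts4 and Mmp3) and 0 in the others. Of all genes DESeq2 called 0.828%, 4.01% and 1.36% in those comparisons, 0% between the shams and 0.166% for the difference. The titles of each 21-day group begin with 1 number of its own, so what it marks and the group cannot be told apart.

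Of the 43 tested members, 13 lay above without overlap and 0 below in 7d-MI + 21 against 7d-SHAM + 21 hearts. In 1d-MI + 21 against 1d-SHAM + 21 hearts 13 lay above and 1 below. The share of all genes that separated was counted in neither comparison. Mmp2 had 216, 128 and 172 CPM in 7d-MI + 21 hearts, against 79.6, 37.3 and 44.8 CPM in 7d-SHAM + 21 hearts. Mmp2 differed by 1.67 ± 0.35 (adjusted p = 0.117) in edgeR. Adamts2 had 134, 48.8 and 78.7 CPM in 7d-MI + 21 hearts, against 30.9, 11.1 and 20.4 CPM in 7d-SHAM + 21 hearts. Adamts2 differed by 2.07 ± 0.42 (adjusted p = 0.117). Timp1 had 8.93, 3.80 and 5.88 CPM in 7d-MI + 21 hearts, against 0.703, 0.215 and 2.13 CPM in 7d-SHAM + 21 hearts. Timp1 differed by 2.70 ± 0.61 (adjusted p = 0.134). None of these pairs overlapped and none was called. Without 7d-SHAM + 21 replicate 1 edgeR called 16 members and 21.6% of all genes there, with log2 fold changes of 2.11 for Mmp2, 2.05 for Mmp14, 2.56 for Timp1, 1.51 for Timp2 and 1.38 for Timp3. It called 1 member and 0.0424% of all genes when 7d-SHAM + 21 replicate 3 was left out, and 1 and 0.0881% when 7d-MI + 21 replicate 2 was. Beside that of Timp1, the largest fitted changes in this comparison were those of Mmp1b (-3.39), Adamts13 (-3.23), Adamts18 (-2.97) and Adamts16 (-2.41), whose groups overlapped. Background reads averaged 0.0145 CPM per kb in 7d-MI + 21 hearts, against 0.124 in 7d-SHAM + 21 hearts.

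Some marker lists separated at 21 days too. Fibroblast markers summed to 1975 to 3128 CPM in 7d-MI + 21 hearts, against 714 to 1328 CPM in 7d-SHAM + 21 hearts. Monocyte and macrophage markers summed to 342 to 384 CPM in 7d-MI + 21 hearts, against 222 to 249 CPM in 7d-SHAM + 21 hearts. Mesothelial and epicardial markers summed to 17.2 to 31.6 CPM in 7d-MI + 21 hearts, against 7.16 to 10.5 CPM in 7d-SHAM + 21 hearts. The 1-day groups overlapped in these 3 lists. Ventricular cardiomyocyte markers summed to 27990 to 33962 CPM in 1d-MI + 21 hearts, against 20141 to 25623 CPM in 1d-SHAM + 21 hearts. Mural and smooth muscle markers summed to 586 to 811 CPM in 1d-MI + 21 hearts, against 361 to 469 CPM in 1d-SHAM + 21 hearts. edgeR called none of the marker genes at 21 days, and their part in the members' values was not tested.

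In the mice operated at 1 day Timp4 was among the members that separated at 21 days. Timp4 had 50.02, 46.1 and 33.6 CPM in 1d-MI + 21 hearts, against 11.4, 8.06 and 13.4 CPM in 1d-SHAM + 21 hearts. These groups did not overlap, with a difference of 1.98 ± 0.58 (adjusted p = 0.284). The 7d-MI + 21 hearts had 2.199, 7.27 and 19.4 CPM, below every 1d-MI + 21 heart, and differed from them by -2.17 ± 0.58 (adjusted p = 0.312). Timp4 made up 36.3 ± 1.68% of the TIMP sum per kb in 1d-MI + 21 hearts, against 17.1 ± 3.46% in 1d-SHAM + 21 hearts (SD, n = 3 each). Adamts4 had 6.32, 6.28 and 3.29 CPM in 1d-MI + 21 hearts, against 0.950, 0.968 and 1.63 CPM in 1d-SHAM + 21 hearts. Adamts4 differed by 2.15 ± 0.52 (adjusted p = 0.255) without overlap. Mmp3 (4.02), Mmp1b (-2.50) and Adamts18 (-2.20) had fitted changes as large, none of them called. Background reads averaged 0.0193 CPM per kb in 1d-MI + 21 hearts, against 0.0681 in 1d-SHAM + 21 hearts. In these groups, in that order, Mmp1b stood at 0.714 and 1.46 times the background expected for its length, and Adamts18 at 0.779 and 1.08 times.

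Mmp12 had 26.1, 0.873 and 15.8 CPM in 7d-MI + 21 hearts, against 0.0639, 0.215 and 15.9 CPM in 7d-SHAM + 21 hearts. After operation at 1 day Mmp12 had 0.105, 0.262 and 0.171 CPM in 1d-MI + 21 hearts, against 1.82, 1.01 and 3.22 CPM in 1d-SHAM + 21 hearts. The 1-day groups did not overlap and lay in the opposite order to 3 days, with a difference of -3.54 ± 1.76 (adjusted p = 0.370). In 7d-MI + 21 against 1d-MI + 21 hearts, the largest fitted changes after Mmp12 (6.36) were those of Mmp9 (2.71), Adamts20 (2.53), Timp4 and Timp1 (1.63). Between the shams they were those of Mmp3 (2.47), Mmp25 (1.97), Timp1 (-1.45), Mmp12 (1.37) and Mmp20 (1.35). For the difference of the MI effects they were those of Mmp12 (4.99), Mmp3 (-3.88), Timp1 (3.08), Mmp25 (-2.20) and Mmp20 (-2.04). In their highest 21-day group Mmp25 and Mmp20 stood at 1.84 and 1.71 times the background expected for their length.

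Per kb, Mmp2 was the most abundant member at 21 days (28.6 CPM per kb as the mean of the 4 groups), followed by Timp2 (21.6), Timp3 (21.2), Mmp15 (14.0) and Timp4 (12.3). Mmp2 made up 57.9 ± 5.09% of the Mmp sum in 7d-MI + 21 hearts, against 43.7 ± 5.29% in 7d-SHAM + 21 hearts. It made up 38.9 ± 1.07% in 1d-MI + 21 hearts, against 39.0 ± 10.96% in 1d-SHAM + 21 hearts. None of the genes of the neighbouring pathways was called at 21 days.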

How the data were processed

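The authors deposited whole-number gene counts and RPKM values (counts scaled by depth and gene length) for each library, and only the counts were used. The submitters' processing notes name TopHat2 2.0.11, Bowtie2 2.2.2, Cufflinks 2.2.1 and GRCm38. The role of each tool, the counter and the annotation remain not given in the sources used here. Groups follow the sample labels, and replicate numbers at 3 days only name libraries. In each follow-up, genes passing filterByExpr (minimum count 10, total 15) were TMM-scaled and fitted with edgeR 4.0.16 (robust quasi-likelihood, 4 group means, R 4.3.3), with Benjamini-Hochberg adjustment over all genes. Estimated biological variation (BCV) was 0.331 at 3 days and 0.567 at 21 days. The code was tested on simulated data. Alternatives used DESeq2 1.42.0, limma 3.58.1, other scalings and filters, the title prefix or replicate number as block, and single libraries left out. Background subtraction, single title prefixes of 1d-SHAM + 3 and leaving out libraries rich in ribosomal RNA were chosen after seeing the data. The text names the Timp genes, Mmp2, Mmp9, Mmp14, called members, the 5 largest changes of each comparison, and per pathway list the 3 called genes of smallest p in each direction; 1 such gene is not reported here. Members and lists were chosen with earlier results of these data known.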

Additional observations from a re-analysis of the deposited data

Results flagged for a closer look

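Within replicate groups of 4 libraries, Dixon's test marked 7 lone values, and chance marks about 1 in 20. Of 152 groups, only those with a mean of at least 1 CPM were examined, so fewer than 152 were tested. The lowest library of 7d-SHAM + 3 for Adamts10 stood at 3.94 CPM, and the lowest of 7d-MI + 3 for Adamts2 at 67.0 CPM. Adamts4 had its highest 1d-MI + 3 library at 4.82 CPM and its lowest 1d-SHAM + 3 library at 1.20 CPM. The highest library of 7d-SHAM + 3 stood at 10.6 CPM for Adamts6, 14.3 CPM for Adamts7 and 2.80 CPM for Mmp24.

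The effect of MI was called as different with age at operation, by the interaction test at 3 days, for 11 members. Of all genes, 9.01% were positive and 4.07% negative in that test. With the title prefix as a random block in limma-voom, only Mmp8 and Mmp16 of these stayed called. On the log2 scale the 7-day effect exceeded the 1-day effect by 1.94 for Timp1, 0.66 for Timp2, 4.29 for Mmp8, 0.73 for Mmp14 and 1.24 for Mmp16. It exceeded it by 0.95 for Adamts2, 1.36 for Adamts4, 1.60 for Adamts8 and 0.96 for Adamts12. The fitted value for Mmp27 was 6.47, which is no bound because 7d-SHAM + 3 held no counts. For Mmp24 the difference was -1.56.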

How the results depend on the processing

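At 3 days the members called between 7d-MI + 3 and 1d-MI + 3 hearts (25) numbered 19 to 25 when single libraries were left out. For 7d-MI + 3 against 7d-SHAM + 3 (26) they numbered 23 to 26. For 1d-MI + 3 against 1d-SHAM + 3 (12) the range was 4 to 17. A fit of those groups alone gave 2 calls, beside 161 of 19480 genes. There were 2 in limma-voom with the title prefix as a random block, 1 with the 1078 shams alone and 23 with the 1103 shams alone. For the shams (12) the range was 6 to 14, with 6 under the prefix block and 7 with the 1103 shams alone. For the difference of the effects (11) it was 6 to 14, with 2 under the prefix block. Over all genes, single libraries left out gave 7273 to 9633, 5656 to 6326, 627 to 3319, 2339 to 5137 and 1826 to 2810 calls, in that order. At 21 days, where edgeR called 0, DESeq2 called 3 in 7d-MI + 21 against 1d-MI + 21, 7 between 7d-MI + 21 and 7d-SHAM + 21 and 2 between 1d-MI + 21 and 1d-SHAM + 21. With no filter there were 5 calls between 7d-MI + 21 and 7d-SHAM + 21, beside 383 of 41576 genes. There was 1 between 1d-MI + 21 and 1d-SHAM + 21, beside 154 genes, and 1 for the difference, beside 17 genes. Single libraries left out gave 0 to 16 between 7d-MI + 21 and 7d-SHAM + 21. The fit of 1d-MI + 21 and 1d-SHAM + 21 alone gave 5, beside 600 of 20609 genes. Causes of these moves were not tested.

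The 21-day libraries were checked for pairing by replicate number. Over 15 pairs of the same number the correlation of deviations ran from -0.188 to 0.544, with 6 over 0.1. Pairs of different number ran from -0.581 to 0.419. Because these ranges overlap, they cannot settle whether the numbers pair libraries. With the replicate block 1 member (Adamts2) was called between 7d-MI + 21 and 7d-SHAM + 21, beside 46 of 24646 genes. At 3 days the labels carry no replicate number, so the only block fitted there was the title prefix.

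Values that turned direction were all uncalled. Adamts13 between the shams at 3 days was 2.62 with the 1103 shams alone. At 21 days Adamts16 in 7d-MI + 21 against 7d-SHAM + 21 was 0.078 with limma-voom. Between the 21-day shams Mmp12 was -3.01 with limma-voom and -4.29 without the 3 libraries over 50% ribosomal RNA, and Mmp20 was -1.14 and -1.05. For the 21-day difference of effects Mmp20 was 0.30 and 0.26 under these. Timp2 in 1d-MI + 21 against 1d-SHAM + 21 was -0.029 with DESeq2, -0.029 with RLE scaling, -0.075 with the background subtracted, -0.074 at a mean count of at least 50, -0.0004 over protein-coding genes, -0.12 with the replicate block and -0.23 with upper-quartile scaling. With single libraries left out it ran -0.018 to 0.21, Timp4 in 7d-MI + 21 against 7d-SHAM + 21 ran -0.34 to 1.19 and Timp3 in the difference ran -0.096 to 0.34. Between the 21-day shams Mmp12 ran -3.97 to 1.94, Mmp14 -0.86 to 0.042, Mmp2 -0.20 to 0.42 and Mmp20 -0.49 to 2.25. Of gene results under the other settings, 1479 kept direction and side of the threshold, 119 lost their call, 34 gained one and 15 turned direction. With single libraries left out these numbers were 1038, 167, 17 and 10.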
